A study of Drosophila melanogaster with 12 samples.

Results

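Mitochondrial ribosomes translate the few messenger RNAs that mitochondrial DNA encodes, all of them for subunits of the respiratory chain and the ATP synthase. Their ribosomal RNAs come from mitochondrial DNA, whereas their proteins are encoded in the nucleus, made in the cytosol and imported. Fly genes for these proteins are named mRpL for the large subunit and mRpS for the small subunit. Low numbers mark counterparts of bacterial ribosomal proteins, and high numbers mostly mark proteins that mitochondrial ribosomes gained. The enterocyte of the midgut absorbs nutrients and relies on oxidative metabolism, and the fly gene mRpL12 is known to be needed for growth driven by Cyclin D and Cdk4.

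The 69 genes described here are those of the 8802 genes in the deposited count table whose symbol starts with mRpL or mRpS. They comprised 45 genes of the large subunit, of which 27 carry a bacterial-type number (up to 36) and 18 a higher one, and 24 genes of the small subunit, of which 13 carry a bacterial-type number (up to 21) and 11 a higher one. The numbers are only a guide: mRpL47 is the counterpart of a bacterial protein, and the human counterparts of mRpS30 and mRpS18A sit in the large subunit. The current fly annotation, BDGP6.54, holds 73 symbols of this form, and 4 of them were not analysed here. By that annotation 11 of the 69 lie on chromosome arm 2L, 11 on 2R, 15 on 3L, 21 on 3R and 11 on X, and their proteins run from 64 to 557 amino acids.

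RNA was counted in GFP-positive cells that were sorted from R3 to R5, the posterior part of the midgut, of 9-day-old virgin Drosophila melanogaster females. All flies carried myoIA-Gal4, a driver active in enterocytes, UAS-GFP and tubGal80ts, which holds Gal4 off until the flies are warmed, here for 6 days at 29 °C after 3 days at room temperature. The tested crosses added UAS-SvbRNAi (svb RNAi), UAS-SvbACT::GFP (SvbACT) or UAS-Svb3Kmut::GFP (labelled SvbREP), and the control cross was to Canton-S, a wild-type stock. Svb, Shavenbaby, is a transcription factor made from the ovo gene. Each of the 4 genotypes had 3 libraries, made on different days, each from the pooled guts of more than 20 females, so genotype and parental stock cannot be told apart in any comparison with control.

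Library totals ran from 3209182 to 8881488 counts, so that 3 counts stood for 0.338 to 0.935 CPM, the unit that sets every library to the same total. Counts of ovo were 21, 78 and 65 where the label was svb RNAi, against 63, 11 and 5 in control. Its scaled level was 9.40 ± 4.75 CPM in svb RNAi and 5.09 ± 5.89 CPM in control (SD, n = 3 each; log2 fold change 0.83, adjusted p = 0.468 by edgeR's quasi-likelihood test). These counts gave no sign of a knockdown, so svb RNAi stands throughout for the libraries labelled so. The log2 fold change of ovo was 5.04 in SvbACT and 5.88 in SvbREP, against control (edgeR adjusted p = 0.00301 and 0.00186). Although the cells are labelled early enterocytes, 8 progenitor markers held 0.632% to 0.983% of the counts over all libraries, and 7 enterocyte markers held 0.0841% to 0.128%. These sums run over different genes, so they do not measure the proportions of the cell types. The members' values describe a sorted population that also held progenitor marker transcripts. In such bulk samples fewer cells of a type and less RNA per cell cannot be told apart.

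Transcripts of the 69 genes took a larger part of every svb RNAi library than of any control library. As raw counts over the library total, the members together held 0.245%, 0.21% and 0.265% of the counts in svb RNAi, and 0.12%, 0.197% and 0.177% in SvbACT. They held 0.149%, 0.217% and 0.149% in SvbREP, against 0.114%, 0.142% and 0.148% in control. The svb RNAi libraries were above all control libraries, whereas SvbACT overlapped control, and SvbREP replicates 1 and 3 lay only just above the highest control library. SvbREP replicate 2 lay above svb RNAi replicate 2. The means were 0.24% ± 0.0277 in svb RNAi, 0.165% ± 0.04 in SvbACT, 0.172% ± 0.0393 in SvbREP and 0.134% ± 0.0182 in control (SD, n = 3 each). The mean share over that of control was 1.79 in svb RNAi, 1.22 in SvbACT and 1.28 in SvbREP. These shares rest on 7869 to 21800 member counts per library in svb RNAi, 8314 to 17490 in SvbACT, 5007 to 11734 in SvbREP and 5771 to 7595 in control.

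Both subunits, as assigned by gene symbol, had this pattern. The 45 large subunit genes held 0.15% ± 0.0152 of the counts in svb RNAi and 0.0808% ± 0.0119 in control. The 24 small subunit genes held 0.0902% ± 0.0125 in svb RNAi and 0.0537% ± 0.00632 in control (SD, n = 3 each). The ratio of large to small subunit counts was 1.66, 1.74 and 1.61 in svb RNAi, 1.48, 1.53 and 1.62 in SvbACT, 1.43, 1.64 and 1.42 in SvbREP, and 1.44, 1.56 and 1.51 in control. The svb RNAi ratios were above the control ratios, and they overlapped those of SvbACT and SvbREP. These sums and ratios count mRpS30, the member with the most counts, and mRpS18A as small subunit genes.

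Across the members, levels per length differed by a few fold. After scaling by TMM, which sets libraries to a common level over most genes, the mean over 12 libraries ran from 17.4 to 121 CPM per kb of coding length, with a median of 33.2 and a middle range of 26 to 41.9. The gene mRpL12, whose product forms the flexible stalk that recruits translation factors to the large subunit, had the highest mean, 121 CPM per kb (65.6 to 211 over the libraries). It was followed by mRpL33 (70.3), mRpS30 (69.4), mRpS22 (69.1) and mRpS9 (60.5). Within libraries mRpL12 was above mRpS30, mRpS22 and mRpS9 in 12 of 12 and above mRpL33 in 11 of 12. The order of the other 4 changed between libraries, with mRpL33 above mRpS30 in 7 of 12 and mRpS30 above mRpS22 in 6 of 12. At the low end stood mRpS33 (19.2), mRpS18A (19.1), mRpS23 (18.1), mRpL11 (17.7), which forms the base of the stalk, and mRpS14 (17.4), whose order also changed between libraries. Counts can include reads from untranslated regions, which the coding length leaves out. Of the 69 genes, 60 had their highest mean level in svb RNAi, 2 in SvbACT, 7 in SvbREP and 0 in control, and 51 had their lowest mean in control.

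**Figure D1:**
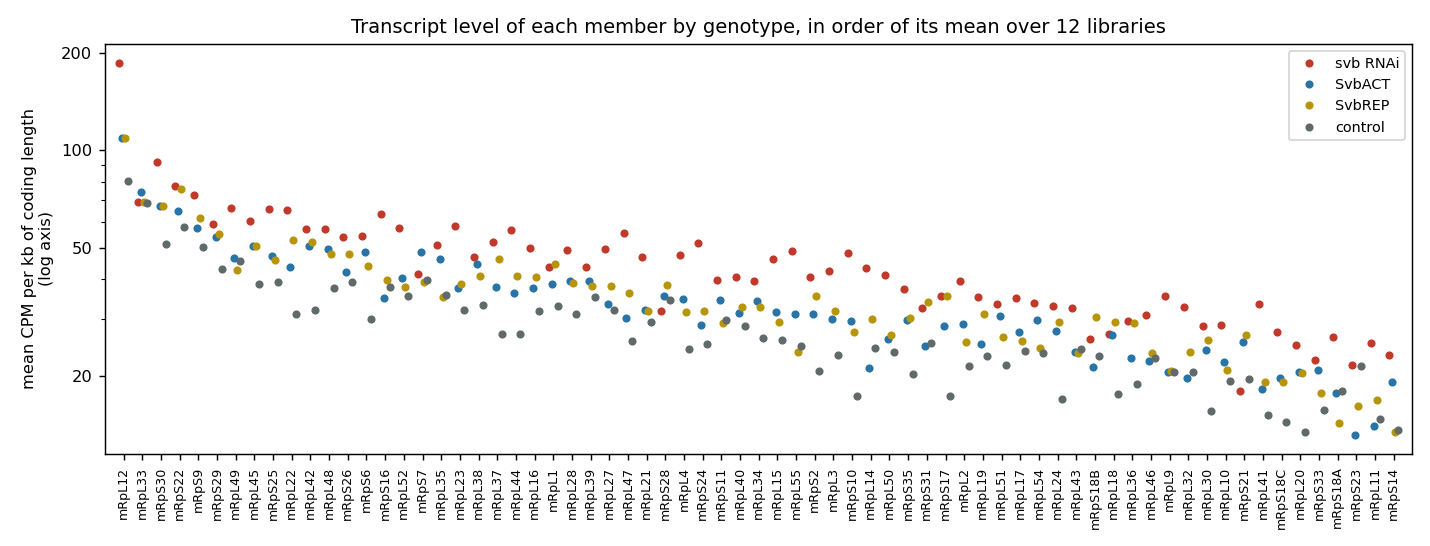
Mean level of each of the 69 genes in each genotype (log axis, TMM-scaled CPM per kb of coding length, n = 3 libraries each), in order of the mean over 12 libraries. The svb RNAi points lie highest for 60 of the 69 genes and the control points lowest for 51.

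In svb RNAi 11 of the 69 genes rose and 0 fell, and nearly all estimates were positive. The median log2 fold change of the 69 genes over control was 0.67, with a middle range of 0.53 to 0.87, beside 0.01 over all 8296 genes tested. The estimate was positive for 67 members and negative for 2. The SD of the estimates over the members was 0.31, close to the median standard error of a single one, 0.29. The 11 genes (15.9%) passed the test as higher (edgeR's quasi-likelihood test, Benjamini-Hochberg adjusted p under 0.05 over all genes tested), where 4.91% of all genes tested were called higher and 6.23% lower. At an unadjusted p under 0.05, 34 members were higher and 0 lower, where 1209 of all 8296 genes tested were higher and 1122 lower. The 3 svb RNAi libraries lay above all 3 control libraries for 42 members and below for 0, where 18.1% of all genes lay above and 17.3% below.

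The labels carry a second set of replicate numbers in the sample descriptions, and libraries with the same description number deviated together in all genotypes. With that number as a block, 28 members passed as higher, the 11 among them, where 9.74% of all genes were called higher. Scaled to library totals, which moves the median of all genes to 0.16, the median of the members was 0.82 and 21 passed as higher, where 9.32% of all genes did. Over all genes 773 were then called higher and 384 lower, against 407 and 517 with TMM. DESeq2 called 19 members higher, where 6.87% of all genes were. The number of members called higher moved with the libraries, as did the share of all genes called higher. Without control replicate 1 it was 0 members, where 1.5% of all genes were called, and without svb RNAi replicate 1 it was 2, where 1.93% were. It was 3 without control replicate 2 (1.81% of all genes), 3 without svb RNAi replicate 3 (2.97%), 6 without control replicate 3 (2.91%) and 17 without SvbACT replicate 1 (6.03%). The median log2 fold change stayed between 0.56 and 0.79 when any 1 library was left out. In the table that the authors deposited, 23 members were called higher and 0 lower in svb RNAi, where 9.19% of its genes were called higher.

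**Figure D2:**
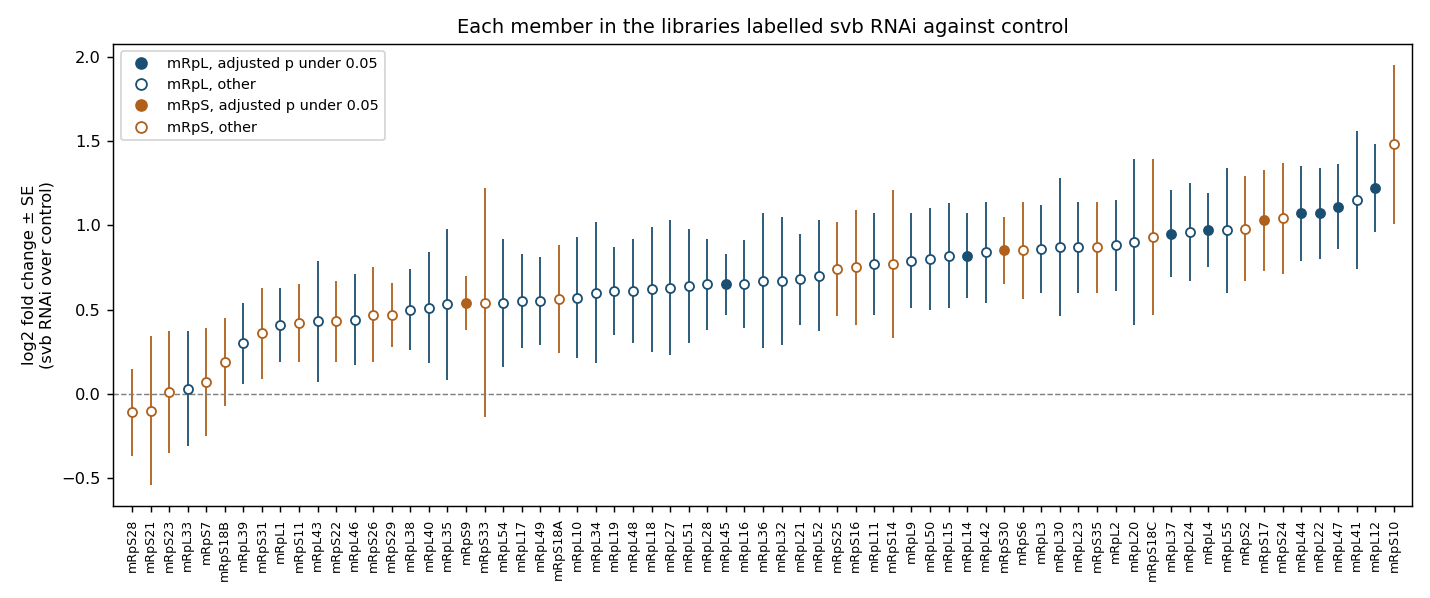
The log2 fold change of each of the 69 genes, svb RNAi over control, with its standard error, in rising order. Filled points mark the 11 genes with an edgeR adjusted p under 0.05, and 67 of the 69 points lie above 0.

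Within genotypes the libraries differed, and control replicate 1 was the lowest of its group. On the log2 scale against the mean of the 3 control libraries, the median member stood at 0.77, 0.46 and 0.93 in svb RNAi replicates 1, 2 and 3. It stood at -0.02, 0.52 and 0.35 in SvbACT, at 0.12, 0.63 and 0.10 in SvbREP, and at -0.22, 0.10 and 0.12 in control. The library with description number 1 had the lowest median in svb RNAi, SvbACT and control, and in SvbREP replicates 1 and 3 were close. Between libraries with the same description number, the median difference from control over the members was 0.69, 0.79 and 0.63 in svb RNAi for numbers 1, 2 and 3. It was 0.20, 0.46 and 0.22 in SvbACT, and 0.37, 0.50 and -0.03 in SvbREP. In svb RNAi 57 of the 69 genes were higher than in the same-numbered control library in 3 of 3 pairs, where 26.8% of all genes were. In SvbACT the number was 27, where 22% of all genes were, and in SvbREP it was 27, where 21.9% were. These comparisons share the control libraries.

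**Figure D3:**
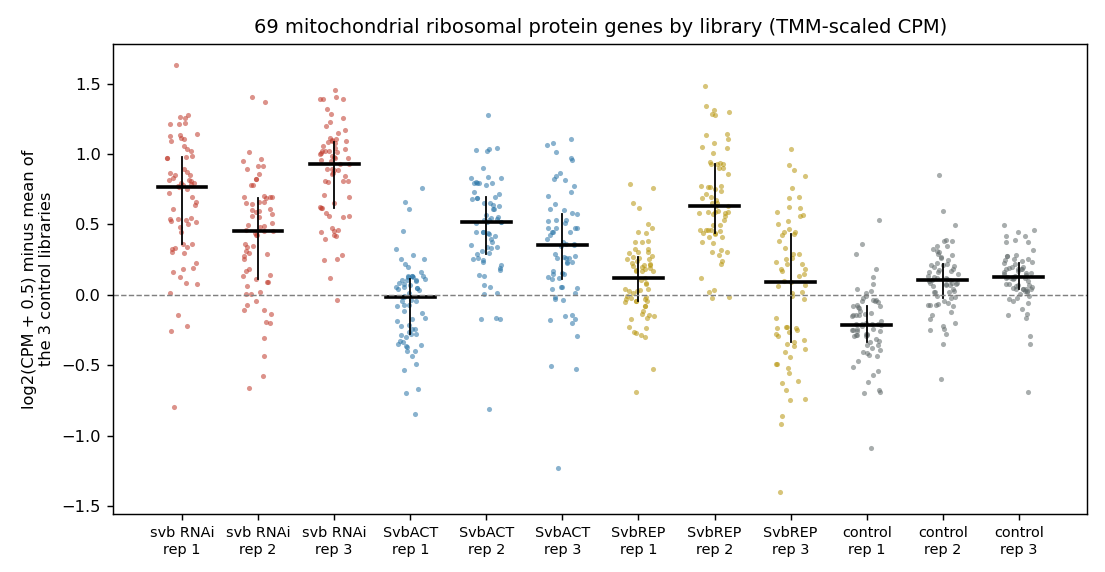
Each point is 1 of the 69 genes in 1 library, as log2(CPM + 0.5) minus its mean in the 3 control libraries. Bars give the median and lines the middle range. The medians are 0.77, 0.46 and 0.93 in svb RNAi, and between -0.22 and 0.12 in control.

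Among genes of the conserved core and the stalk, mRpL12 had the largest rise of those called in svb RNAi. This gene (FBgn0011787) lies on chromosome 3L, 8956791 to 8957584, on the plus strand in BDGP6.54, and shares no exon position with another gene in the table. Its level was 76.9, 113 and 115 CPM in svb RNAi, 44.9, 78.0 and 55.9 CPM in SvbACT, 52.3, 81.4 and 45.5 CPM in SvbREP, and 35.8, 47.6 and 48.1 CPM in control. All svb RNAi libraries were above all control libraries, while svb RNAi replicate 1 lay below SvbACT replicate 2 and SvbREP replicate 2. The log2 fold change in svb RNAi was 1.22 (standard error 0.26, adjusted p = 0.012 by edgeR). It was 0.45 in SvbACT and 0.45 in SvbREP (edgeR adjusted p = 0.491 and 0.487).

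The partners of the stalk were less clear. The protein mRpL10 anchors the stalk to the ribosome; its gene averaged 21.4 ± 6.09 CPM in svb RNAi and 14.4 ± 5.76 CPM in control (SD, n = 3 each), with overlapping groups and an edgeR adjusted p of 0.326. The gene for the stalk base, mRpL11, had 18.8, 12.9 and 12.8 CPM in svb RNAi, against 7.16, 9.94 and 8.84 CPM in control. The groups did not overlap, yet the log2 fold change of 0.77 missed the threshold (edgeR adjusted p = 0.112).

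The proteins mRpL4 and mRpL22 line the tunnel through which the new chain leaves the ribosome, and both genes rose. The gene mRpL4 (FBgn0001995; 2L, 16328059 to 16329132, minus strand) had 45, 38.2 and 42.9 CPM in svb RNAi, against 17.9, 24.1 and 22.6 CPM in control (log2 fold change 0.97, standard error 0.22, edgeR adjusted p = 0.0161). The gene mRpL22 (FBgn0030786; X, 16783933 to 16785092, plus strand) had 47.3, 44.3 and 45.8 CPM in svb RNAi, against 20.5, 20.6 and 24.2 CPM in control (log2 fold change 1.07, standard error 0.27, edgeR adjusted p = 0.0225). The svb RNAi values of mRpL22 lay close together, whereas its SvbACT values were 18.3, 45.2 and 27.7 CPM. The exons of mRpL4 share 73 bases with CG4278 on the opposite strand, and CG4278 had a log2 fold change of 0.32 in svb RNAi (edgeR adjusted p = 0.517).

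Of the other core proteins near the peptidyl transferase centre, mRpL2 and mRpL3 fell just short of the threshold. The gene mRpL2 had 36.5, 31.7 and 35.7 CPM in svb RNAi, against 12.4, 21.4 and 22.9 CPM in control (log2 fold change 0.88, edgeR adjusted p = 0.0556). The gene mRpL3 had 43.6, 37.8 and 56 CPM in svb RNAi, against 20.4, 29.8 and 25.7 CPM in control (log2 fold change 0.86, edgeR adjusted p = 0.0535). For both genes the groups did not overlap, and both passed with the block on description numbers (edgeR adjusted p = 0.00805 for mRpL2 and 0.0107 for mRpL3). By contrast mRpS7, a protein of the head of the small subunit, averaged 27.1 ± 9.94 CPM in svb RNAi and 25.9 ± 2.45 CPM in control (SD, n = 3 each; edgeR adjusted p = 0.916).

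The gene mRpL14 encodes a bacterial-type protein at the face of the large subunit that meets the small one. It (FBgn0040389; X, 2343997 to 2344649, minus strand) had 16.2, 23.4 and 22.8 CPM in svb RNAi, 9.6, 10.4 and 10.6 CPM in SvbACT, 14.1, 17.9 and 11.5 CPM in SvbREP, and 10.6, 13.4 and 11.4 CPM in control. The svb RNAi libraries lay above those of SvbACT and of control. The log2 fold change was 0.82 over control (standard error 0.25, edgeR adjusted p = 0.049) and 1.03 over SvbACT (standard error 0.25, edgeR adjusted p = 0.0466).

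Among large subunit proteins with high numbers, mRpL47 and mRpL44 had the largest changes called. The gene mRpL47 (FBgn0014023; 3R, 9514822 to 9515908, minus strand) had 49.9, 40.3 and 45 CPM in svb RNAi, 21.4, 24 and 28.3 CPM in SvbACT, 25.5, 41.9 and 20.9 CPM in SvbREP, and 16.8, 24.1 and 21.6 CPM in control. Its svb RNAi libraries stood above all SvbACT and control libraries and overlapped SvbREP (log2 fold change over control 1.11, standard error 0.25, edgeR adjusted p = 0.0151). The gene mRpL44 (FBgn0037330; 3R, 5469463 to 5470636, minus strand), whose protein has a fold like that of RNase III, had 63.5, 44.7 and 55.6 CPM in svb RNAi, against 22.4, 28.3 and 27.3 CPM in control (log2 fold change 1.07, standard error 0.28, edgeR adjusted p = 0.0289). The exons of mRpL44 share 104 bases with POLDIP2 on the opposite strand, which had a log2 fold change of 0.67 in svb RNAi (edgeR adjusted p = 0.145). As the strand setting of the counting is not given in the sources used here, reads from such pairs may not be told apart.

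The genes mRpL37 and mRpL45, named after their values were seen, were also among the 11. The human counterpart of mRpL45 docks the ribosome at the inner membrane. Its gene had 67.5, 67.7 and 61.4 CPM in svb RNAi, against 36, 46.6 and 42.9 CPM in control (log2 fold change 0.65, edgeR adjusted p = 0.0336). The gene mRpL37 had 72.4, 52.3 and 66.4 CPM in svb RNAi, against 30.9, 32.7 and 35.3 CPM in control (log2 fold change 0.95, edgeR adjusted p = 0.0341). In mRpL55, of the same class, the groups did not overlap either, yet its log2 fold change of 0.97 missed the threshold (edgeR adjusted p = 0.106).

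Of the genes named mRpS, 3 were called higher, namely mRpS17, mRpS30 and mRpS9. The gene mRpS17 (FBgn0034986, on 2R), a bacterial-type protein of the subunit's body, had 19.1, 12.4 and 17.8 CPM in svb RNAi, 9.6, 12.8 and 17.4 CPM in SvbACT, 14.1, 20.5 and 14.7 CPM in SvbREP, and 6.6, 8.41 and 9.1 CPM in control. All 9 libraries of svb RNAi, SvbACT and SvbREP were above the 3 control libraries. The log2 fold change over control was 1.03 in svb RNAi (standard error 0.30, edgeR adjusted p = 0.0435), 0.72 in SvbACT (adjusted p = 0.312) and 1.04 in SvbREP (adjusted p = 0.137). The SvbREP value passed with the block on description numbers (log2 fold change 1.05, edgeR adjusted p = 0.0423).

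The gene mRpS30 (FBgn0030692; X, 15786047 to 15788288, plus strand) had the most counts of the members, 510, 723 and 1569 in svb RNAi, against 348, 466 and 394 in control. Scaled, it had 145, 137 and 178 CPM in svb RNAi, against 65.6, 89.1 and 102 CPM in control (log2 fold change 0.85, standard error 0.20, edgeR adjusted p = 0.0192). The gene mRpS9 (FBgn0037529; 3R, 7889277 to 7902667, minus strand) had 98.3, 72.8 and 88 CPM in svb RNAi, against 54.1, 60.4 and 64.2 CPM in control. Its log2 fold change of 0.54 lay at the threshold (standard error 0.16, edgeR adjusted p = 0.0499). Its exons share 325 bases with ArgRS-m on the opposite strand, which had a log2 fold change of -0.14 in svb RNAi (edgeR adjusted p = 0.632).

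**Figure D4:**
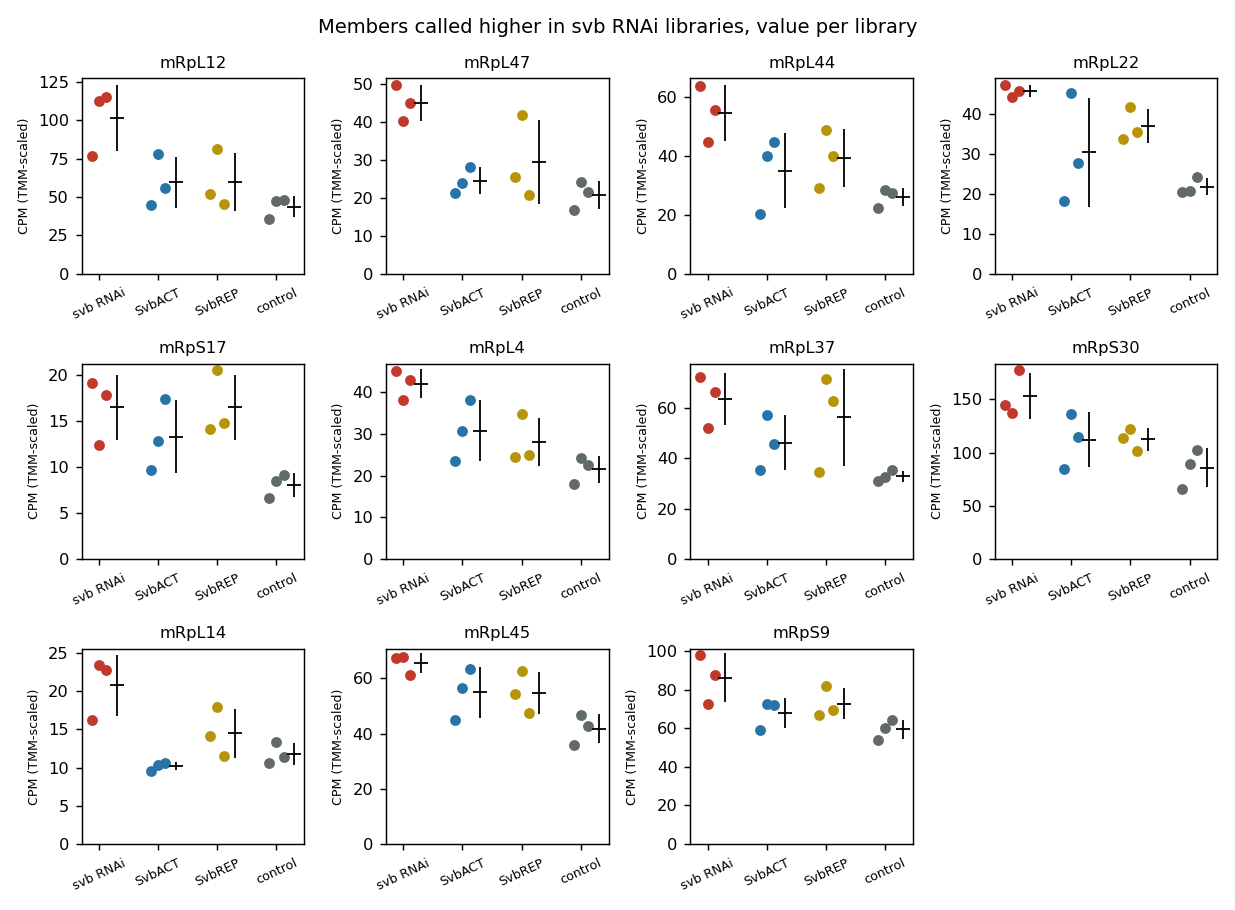
Level of each of the 11 genes called higher in svb RNAi, in every library (TMM-scaled CPM, axes start at 0), with the mean and SD of 3 libraries beside the points. In each panel the 3 svb RNAi points lie above the 3 control points, and SvbACT and SvbREP mostly lie between.

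For a small group of members the estimate in svb RNAi lay near 0. The lowest estimates were those of mRpS28, with 20.2, 16.5 and 18.6 CPM in svb RNAi against 21.7, 12.4 and 25.7 CPM in control (log2 fold change -0.11, 95% interval -0.66 to 0.45), and of mRpS21 (-0.10, -1.04 to 0.85). Next came mRpS23, with 15.7, 7.98 and 13.2 CPM in svb RNAi against 11.9, 10.7 and 14 CPM in control (0.01, -0.76 to 0.77), and mRpL33 (0.03, -0.70 to 0.76). These genes are named after their values were seen, except mRpS23 and mRpL33. In all 4 genes svb RNAi and control overlapped, and the intervals of mRpS21, mRpS23 and mRpL33 include the family's median of 0.67, so a shift of that size was not detectable there at this depth. The interval of mRpS28 ends at 0.45, below that median. As mRpS28 was picked for the lowest of 69 estimates, its interval does not set it apart from the family.

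Some members with low counts or a wide spread between libraries were not resolved. The smallest count was 7, for mRpS33, which had 5.7, 4.18 and 12.9 CPM in svb RNAi, against 1.88, 8.6 and 5.46 CPM in control (log2 fold change 0.54, standard error 0.68). The largest estimate of the family, 1.48 for mRpS10, a bacterial-type protein of the small subunit's head that is named after its values were seen, missed the threshold (standard error 0.47, edgeR adjusted p = 0.059). That gene had 27.4, 23.4 and 24.2 CPM in svb RNAi, 7.83, 21.3 and 17 CPM in SvbACT, 10.8, 24.7 and 7.17 CPM in SvbREP, and 5.09, 10.7 and 11.2 CPM in control. It passed with the block on description numbers (log2 fold change 1.56, edgeR adjusted p = 0.0107). The lowest of the 3 libraries in SvbACT and in control carries description number 1.

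The 3 paralogs mRpS18A, mRpS18B and mRpS18C had unequal estimates with wide errors. In svb RNAi the log2 fold change was 0.56 for mRpS18A (95% interval -0.12 to 1.25), 0.19 for mRpS18B (-0.38 to 0.75) and 0.93 for mRpS18C (-0.05 to 1.92). The intervals overlap widely. None of them passed the edgeR test, with adjusted p of 0.267 for mRpS18A, 0.693 for mRpS18B and 0.198 for mRpS18C.

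By class, as assigned from the symbols, 8 of 45 large subunit genes and 3 of 24 small subunit genes were called higher in svb RNAi. Over all genes 4.91% were called higher. The median log2 fold change was 0.67 in the large and 0.55 in the small subunit. Among genes with bacterial-type numbers the median was 0.68 in the large and 0.75 in the small subunit, and among those with higher numbers it was 0.64 and 0.47. No exon position is shared with another gene of the deposited data in 33 members, of which 7 passed, with a median log2 fold change of 0.67, and 4 of the other 36 passed, again beside 4.91% of all genes called higher. Across the 69 genes the Spearman correlation of the log2 fold change with coding length was -0.07 and with the mean level 0.00, given as a description since the genes share libraries. Over the 4524 genes whose coding length lies in the members' range, the median log2 fold change was 0.07.

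In SvbACT and SvbREP the estimates were smaller and no member passed. The median log2 fold change over control was 0.28 in SvbACT, with 59 genes positive, beside 0.02 for all genes, and 0.31 in SvbREP, with 61 positive, beside 0.03. The SvbACT median was 0.18 without SvbACT replicate 2, and the SvbREP median was 0.12 without SvbREP replicate 2. In SvbACT 0 members were called higher or lower by edgeR's quasi-likelihood test, where 0.687% of all genes were called higher and 0.856% lower, and the smallest adjusted p was 0.312. In SvbREP 0 were called in either direction, where 0.53% of all genes were called higher and 0.675% lower, and the smallest adjusted p was 0.137. At an unadjusted p under 0.05, 6 members were higher in SvbACT and 7 in SvbREP, and 0 were lower in both. Of all 8296 genes tested, 539 were higher and 591 lower at that p in SvbACT, and 561 and 517 in SvbREP. DESeq2 called 0 members in both comparisons, where 1.72% of all genes were called higher in SvbACT and 1.28% in SvbREP. The authors' deposited table called 0 members too, where 1.32% of its genes were called higher in SvbACT and 1.11% in SvbREP. With the block on description numbers 0 members passed as higher in SvbACT, where 1.7% of all genes did, and 1, mRpS17, in SvbREP, where 1.45% did. The SvbACT libraries lay above control for 6 members and below for 1, mRpS23, where 9.23% of all genes lay above and 10.6% below. The SvbREP libraries lay above control for 13 members, where 10.5% of all genes did.

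The tested genotypes were also compared with one another, which leaves the control libraries out of the contrast. In svb RNAi against SvbACT the median log2 fold change of the members was 0.39, with 65 positive, and 1 gene, mRpL14, was called higher by edgeR and 0 lower, where 0.458% of all genes were called higher and 2.09% lower. At an unadjusted p under 0.05, 13 members were higher, where 534 of all 8296 genes tested were. With 1 library left out, the mRpL14 call remained only without SvbREP replicate 3. Without SvbACT replicate 2 or SvbREP replicate 2 another member was called in its place, and without any one of the other 9 libraries 0 were called. In these fits with 1 library left out, 0.13% to 0.534% of all genes were called higher. In svb RNAi against SvbREP the median was 0.38, with 62 positive, and it was 0.23 without svb RNAi replicate 3 and 0.64 without SvbREP replicate 2. By edgeR 0 members were called, where 0.482% of all genes were called higher and 2.11% lower, and the smallest adjusted p was 0.16. At an unadjusted p under 0.05, 10 members were higher, where 532 of all 8296 genes tested were. With the block on description numbers 4 members were called higher over SvbACT, where 1.69% of all genes were, and 1 over SvbREP, where 1.59% were. DESeq2 called 2 members higher over SvbACT, where 1.29% of all genes were, and 0 over SvbREP, where 1.41% were. For most single genes the difference between svb RNAi and SvbACT or SvbREP was thus not detectable at this depth and n.

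Between SvbACT and SvbREP the family did not separate. The median log2 fold change was -0.03, with 30 genes positive and 39 negative and a range of -0.51 to 0.52. By edgeR 0 members were called, where 0.0482% of all genes were called higher and 0.0241% lower. DESeq2 also called 0, where 27 of all 8296 genes were called higher and 14 lower. At an unadjusted p under 0.05, 0 members were higher or lower, where 212 of all 8296 genes were higher and 213 lower. The sign of this median turned with the library left out, from -0.17 without SvbACT replicate 2 to 0.11 without SvbACT replicate 1 and 0.22 without SvbREP replicate 2. For single genes the standard error of 0.16 to 0.67 bounds what could be seen.

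The mitochondrial ribosome's other parts gave a mixed picture. The gene bonsai, which encodes the S15 protein of the small subunit, averaged 66.6 ± 10.2 CPM in svb RNAi and 34.7 ± 3.4 CPM in control (SD, n = 3 each; log2 fold change 0.94, edgeR adjusted p = 0.0105). The gene tko, which encodes the S12 protein of the decoding centre, averaged 34.7 ± 6.94 CPM in svb RNAi and 24.3 ± 3.08 CPM in control and did not pass (log2 fold change 0.52, edgeR adjusted p = 0.21). The ribosomal RNAs of mitochondria, mt:lrRNA and mt:srRNA, had log2 fold changes of -0.27 and -0.31 in svb RNAi (edgeR adjusted p = 0.542 and 0.51). Whether the library kit removed part of these RNAs is not stated, so their levels are relative.

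Genes that act with the mitochondrial ribosome were called in part, where 4.91% of all genes tested were called higher in svb RNAi. Of 8 mitochondrial translation factors 2 rose in svb RNAi, the elongation factors mEFTs (log2 fold change 0.82) and mEFG1 (1.01), with a list median of 0.51. Of 20 mitochondrial aminoacyl-tRNA synthetases, which charge the transfer RNAs, 4 rose and 0 fell, with a median of 0.59. They were AlaRS-m (0.62), PheRS-m (0.79), TrpRS-m (0.79) and GlyRS (0.67), the last of which also serves the cytosol. Of 17 genes for mitochondrial DNA expression and RNA processing 2 rose, the helicase gene Suv3 (1.23) and the ribonuclease gene PNPase (1.05), with a median of 0.42. Their edgeR adjusted p ran over 0.0273 and 0.0308 for the factors, 0.0354 to 0.0468 for the synthetases, and 0.0146 and 0.0251 for Suv3 and PNPase. With the block on description numbers the counts were 2, 8 and 4, where 9.74% of all genes were called higher.

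Some genes of protein import and respiration rose too, again beside 4.91% of all genes called higher in svb RNAi. Of 12 import genes 4 rose and 0 fell, with a median of 0.66 and edgeR adjusted p of 0.0253 to 0.0479 for the 4: Tom70, a receptor of the outer membrane (0.71), Tim8, a chaperone between the membranes (0.90), Hsc70-5, the chaperone that pulls proteins into the matrix (0.80), and UQCR-C1 (0.72), a core subunit of complex III that is also in the next list. Of 62 nuclear genes of the respiratory chain and ATP synthase 10 rose and 0 fell, with a median of 0.57. The largest rises called were in ND-18 of complex I (0.97, edgeR adjusted p = 0.0112) and ATPsynO of the ATP synthase (0.85, adjusted p = 0.0349). With the block on description numbers 7 import genes and 35 respiratory genes were called higher, where 9.74% of all genes were. Of 12 growth regulators of mitochondria 2 rose, srl, the fly PGC-1 (0.57), and Lon, a matrix protease (0.62), and the list median was 0.10.

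The 13 messenger RNAs that mitochondrial DNA encodes, which mitochondrial ribosomes translate, had no called change. Of them 0 were called by edgeR in either direction in svb RNAi, 0 had an unadjusted p under 0.05, and the median log2 fold change was 0.04 with TMM and 0.19 by library totals, where the median of all genes was 0.16. Of the 77 cytosolic ribosomal protein genes, the family most like the members in kind, 0 were called in svb RNAi. At an unadjusted p under 0.05, 1 of them was higher and 3 lower, where 1209 of all 8296 genes were higher and 1122 lower. The median log2 fold change of the cytosolic genes was -0.16 with TMM and -0.01 by library totals. With the block on description numbers 4 of them passed as lower and 0 as higher, beside 821 lower and 808 higher over all 8296 genes. In SvbACT all 77 had positive estimates with a median of 0.29, beside 0.28 for the members, and in SvbREP the median was 0.31 for the members and 0.17 for the cytosolic genes. In SvbACT and SvbREP 0 genes of these lists were called against control by edgeR.

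**Figure D5:**
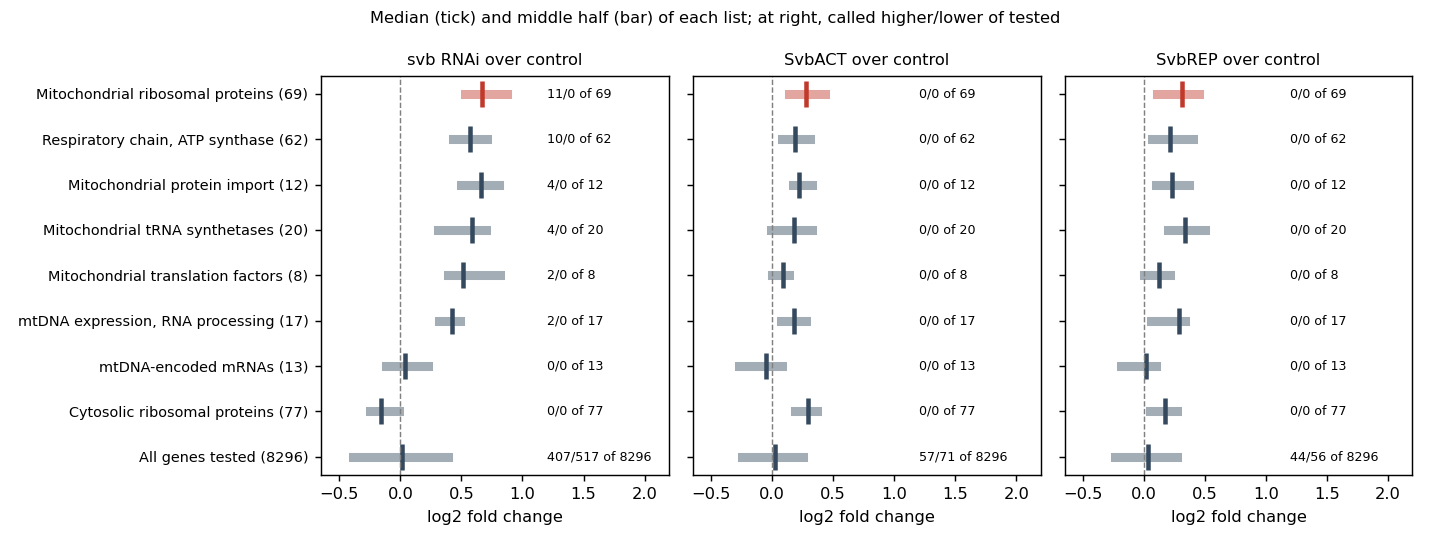
Median (tick) and middle range (bar) of the log2 fold change over control in each gene list, for svb RNAi, SvbACT and SvbREP, with the genes called higher and lower by edgeR beside them. In svb RNAi the nuclear mitochondrial lists drawn have medians of 0.42 to 0.67, and cytosolic ribosomal proteins and mtDNA-encoded mRNAs have -0.16 and 0.04. The growth regulators of mitochondria, with a median of 0.10, are not drawn.

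Markers of other cells moved with the genotypes as well. The 8 progenitor markers held 0.632% to 0.682% of the counts in svb RNAi, 0.667% to 0.983% in SvbACT, 0.72% to 0.784% in SvbREP and 0.861% to 0.892% in control. In svb RNAi Dl rose and esg, klu and zfh2 fell (edgeR adjusted p under 0.05). In SvbACT Dl rose (log2 fold change 1.27, edgeR adjusted p = 0.02) and 0 fell, and in SvbREP 0 were called. Of the genotypes, svb RNAi had the highest mean member share and the lowest mean progenitor share. The 7 enterocyte markers held 0.0896% to 0.128% in svb RNAi and 0.0841% to 0.114% in control. They held 0.0958% to 0.0988% in SvbACT and 0.0958% to 0.128% in SvbREP. Of the 7, 1, mex1, was called lower in svb RNAi (14.4 CPM in svb RNAi and 29.1 CPM in control on average, edgeR adjusted p = 0.0445). The 11 enteroendocrine markers held 0.0558% to 0.131% in svb RNAi, 0.031% to 0.0505% in SvbACT, 0.0282% to 0.0479% in SvbREP and 0.0893% to 0.34% in control. Of these 11, 1 was called higher (Orcokinin) and 1 lower (CCHa2) in svb RNAi, 6 lower in SvbACT and 6 lower in SvbREP. Of all genes tested, 4.91% were called higher and 6.23% lower in svb RNAi, 0.856% lower in SvbACT and 0.675% lower in SvbREP. The 10 visceral muscle markers held 0.114% to 0.167% in svb RNAi, 0.139% to 0.149% in SvbACT, 0.126% to 0.142% in SvbREP and 0.165% to 0.252% in control, with 1, Tm1, called lower in svb RNAi. Markers of blood cells, trachea and fat body held at most 0.0032% of any library, with the blood cell gene Sr-CI called lower in svb RNAi, and 6 ovary markers at most 0.0135%. The part of these cells in the members' difference was not tested.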

How the data were processed

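Counts per gene were deposited by the authors as raw whole numbers for 12 libraries. Per the submitters' processing notes, FastQC 0.11.5, STAR 2.5.2b, HTSeq 0.6.0 and edgeR were used, with build dm6; strand setting and annotation are not given in the sources used here. Per the labels, libraries were made with Ovation SoLo and read as single reads of 100 nt. The authors' deposited table also holds a score of -1, 0 or 1 per gene for their calls. A second header line naming 12 columns without values was not used.

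Here the counts were fitted in R 4.3.3 with edgeR 4.0.16 (quasi-likelihood test, TMM, genotype as the only factor, all 12 libraries). The filterByExpr rule with a minimum count of 10 kept 8296 genes, the 69 members among them, and p-values were adjusted by Benjamini-Hochberg over these. The coefficient of variation between replicates was 0.296. Alternatives were DESeq2 1.42.0, other scalings and filters, replicate blocks and leaving out each library. Same-numbered libraries correlated in their deviations from group means in 18 of 18 pairs by the description numbers (mean 0.267) and 9 of 18 by the title numbers (mean 0.0214), so only the description numbers pair samples. Floors of 3 counts cover counting error only.

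Named members were those called in a contrast (the 5 largest rises and falls if over 10), the 5 highest and lowest per kb, and genes fixed by role. From other lists all called genes were named if at most 4, otherwise the 2 largest rises and falls. The members and lists were chosen with earlier results of these data known. Gene positions and coding lengths came from Ensembl's BDGP6.54 annotation. The test was also run on simulated counts, drawn independently for each library with the same spread between replicates for all genes. That check did not cover the shared deviations of same-numbered libraries.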

Additional observations from a re-analysis of the deposited data

How the results depend on the processing

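In svb RNAi over control, the 11 members called higher (4.91% of all genes called higher) became 21 with library totals (9.32%), 19 with DESeq2 (6.87%) and 28 with the replicate block on description numbers (9.74%). They became 39 with that block and library totals together (16.3%) and 4 without the 4 libraries of description number 1 (2.41%). The block on title numbers gave 14 (5.24%). Leaving out 1 library gave 0 to 17 (1.5% to 6.03%). The setting without the libraries of number 1 and the block with library totals were chosen after seeing the data. In SvbREP over control, 1 member was called with the description block (1.45%), 1 with that block and library totals (1.23%), and 1 without the libraries of number 1 (0.315%). In svb RNAi over SvbACT, the 1 call (0.458%) became 2 with DESeq2 (1.29%) and 4 with the description block (1.69%). It became 6 with that block and library totals (3.3%), 0 with the title block (0.35%) and 0 with only the 2 genotypes compared (0.339%). It was 0 without the libraries of number 1 (0.448%), and 0 to 1 with 1 library left out (0.13% to 0.534%). In svb RNAi over SvbREP, 1 was called with the description block (1.59%) and 2 with that block and library totals (3%). The block changed no other count of members called, and the cause of these changes was not tested. In none of these settings was a member called lower in the contrasts with control. Values under alternatives were tallied for mRpL4, mRpL12, mRpL14, mRpL22, mRpL44, mRpL47, mRpS9, mRpS17 and mRpS30 in svb RNAi. Of these values 137 stayed past the threshold in the same direction, 61 kept the direction and missed it, and 0 reversed. These genes were picked as called in the main fit to the same libraries, so the tally is a description only. The threshold was missed in 15 settings and passed in 7 for mRpL14 and likewise for mRpS9, and in 11 and 11 for mRpS17. The other genes missed it in 2 to 5 settings. Counts were low for mRpS33, mRpS21 and mRpS14, with standard errors of 0.68, 0.44 and 0.44 in svb RNAi over control. Other members were limited as well, among them mRpL20 (standard error 0.49) and mRpS10 (0.47).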
